A study of Mus musculus with 23 samples.

Results

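RLTR45-int and RLTR45 are repeat annotation entries for an endogenous retrovirus of the mouse genome, the first for its internal part and the second for its long terminal repeat (LTR). They were taken by name from a table of RNA reads per repeat subfamily and are 2 of its 1135 rows. An endogenous retrovirus is the inherited copy of an ancient infection. Its internal part holds what is left of the viral genes, such as gag, which encodes the structural proteins, and pol, which encodes the reverse transcriptase and integrase. A copy of the LTR lies on either side and carries the promoter and the polyadenylation signal. Recombination between the LTRs of a copy removes the internal part and leaves a solitary LTR, so most retroviral families have more LTRs than internal parts in the genome. RLTR45 belongs to ERVK, the betaretrovirus-like class that also holds the intracisternal A particles (IAP) and the ETn elements, which include the copies that still move in mice. Cells hold many such copies silent through DNA methylation and repressive histone marks.

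The libraries were poly(A)-selected and stranded, from RNA of whole spinal cord lysate. PS19 mice are heterozygous for a transgene of mutant human tau, driven by the mouse prion protein promoter, and develop tau aggregates in neurons; controls were wild-type littermates. There were 5 PS19 and 5 control samples at 4 months, and 7 PS19 and 6 control samples at 9 months. Neither sex nor batch was labelled. Nothing in the labels says that each sample is a separate animal, so p-values measure the spread between samples. The table has no rows for genes, so neither the transgene nor markers of spinal cord cells were tested. Related subfamilies share sequence, and whether reads came from the retroviral copies' own transcripts or from repeat sequence inside other RNAs was not tested. In whole tissue, a change in the number of cells of a type and a change in RNA per cell cannot be told apart.

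A library held 338090 to 2168280 reads of repeats. The 4-month samples fell into a set of high repeat total (replicates 1 to 3 of each genotype, 1494944 to 2459738 normalized reads in sum) and a set of low total (replicates 4 and 5, 471178 to 779835). By sample number, all samples of the high set came before those of the low set, and whether the sets were handled apart is not labelled. The sums of the 9-month samples were 370990 to 539759. Values below are the deposited normalized reads, read numbers divided by a size factor of the sample, unless another scale is named. The 2 rows differ in length and in number of genomic copies, and neither is in the table, so their levels can be compared between samples but not as amounts of transcript per copy.

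In normalized reads RLTR45-int stood at similar levels in 3 of the 4 groups and far lower in the fourth. At 4 months its mean was 327 ± 140.0 for control and 304 ± 109 for PS19 (SD, n = 5 each). At 9 months it was 268 ± 137 for PS19 (SD, n = 7) and 66.0 ± 17.4 for control (SD, n = 6). The first 3 groups overlap in that order, each mean lying within 1 SD of its neighbour. On this scale most rows were lower at 9 months, with median log2 differences of -2.14 in control and -1.83 in PS19. The age difference of RLTR45-int lay at the 47.3 percentile of rows in control and at the 85.5 percentile in PS19. The age difference in control was thus near the general shift of the table. In a fit with a term for the 4-month sets of high and low repeat total it was -1.57. The median row was then at -1.13, and RLTR45-int at the 27.8 percentile. The 9-month difference between genotypes is the reason this retrovirus was singled out, so everything on that difference is a description without a test.

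The values in PS19 at 9 months ran from 123 to 517 with a median of 233, and those in control from 52.2 to 95.8 with a median of 58.5. All 7 PS19 samples lay above all 6 controls. PS19 replicate 5 was highest at 517, followed by replicate 3 at 344 and replicate 1 at 318, and replicate 7 was lowest at 123. Among controls, replicate 4 at 95.8 and replicate 3 at 77.6 stood above the other 4, which ran from 52.2 to 62.5. In reads as sequenced this was 112 to 610 per PS19 sample against 53 to 101 per control. The mean was 4.06-fold higher in PS19. On the log2(value + 1) scale the limma fit of all 23 samples put the difference at 1.89 (SE 0.35), the highest of the 920 rows tested, whose median was 0.19. In that fit 0.109% of tested rows passed an adjusted p of 0.05, and in 0.978% every PS19 sample lay above every control. Both shares count RLTR45-int among the rows, so neither is a background free of the row that was chosen, nor a test of it. By sample number, all controls came after PS19 replicates 1 to 5, and whether these were handled apart is not labelled. With only PS19 replicates 6 and 7, at 233 and 123, whose numbers adjoined those of the controls, the log2 difference was 1.38 (SE 0.53).

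The LTR, RLTR45, differed less at 9 months. It ran from 73.5 to 114 with a median of 102 in PS19, and from 48.4 to 106 with a median of 61.1 in control. The means were 99.6 ± 15.3 (SD, n = 7) and 65.0 ± 21.1 (SD, n = 6), 1.53-fold apart. All 7 PS19 samples lay above the control median, yet the groups overlapped, because control replicate 3 stood at 106 while the other controls ran from 48.4 to 64.2. The log2 difference was 0.64 (SE 0.32), at the 90.2 percentile of tested rows. With only PS19 replicates 6 and 7 it was 0.54 (SE 0.55). As with the internal part, this contrast gave the pair its interest and no test is given.

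**Figure D1:**
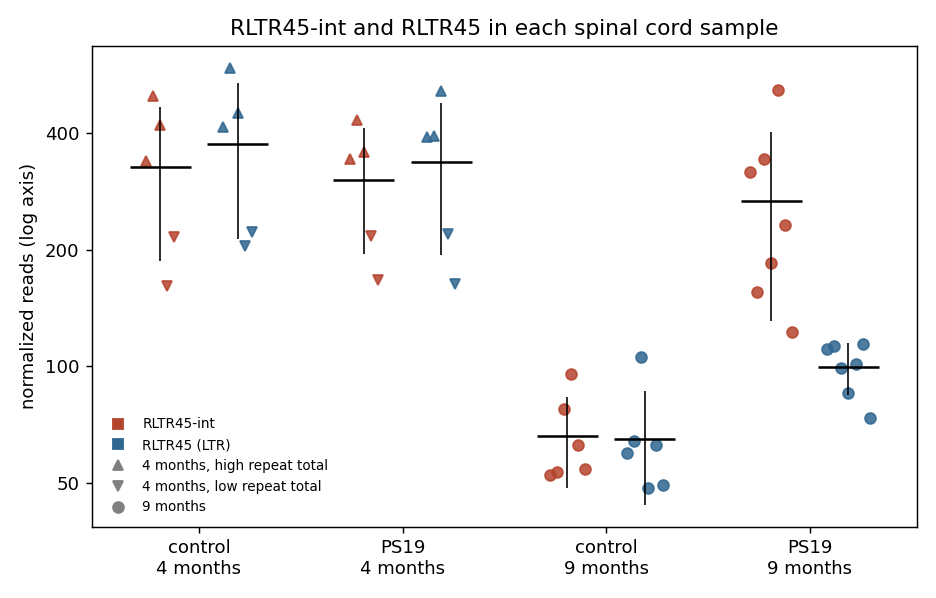
Normalized reads (log axis) of RLTR45-int (red) and its LTR RLTR45 (blue) in every sample of the 4 groups; bars mark the mean and 1 SD, and triangles show 4-month samples of the high and low repeat total. The internal part of PS19 at 9 months, 123 to 517, is the one 9-month set of points that reaches the 4-month range, while the LTR lies at or below 114 in all 9-month samples.

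Inside the PS19 group at 9 months the internal part spread widely and the LTR did not. RLTR45-int varied 4.21-fold from the lowest to the highest of the 7 samples, a coefficient of variation of 51.0%, where counting error alone gives 6.91%. The LTR varied 1.56-fold in the same samples, a coefficient of variation of 15.4% against 10.1% from counting. Among 648 rows with a mean of at least 50, the SD of the log2 values of RLTR45-int in this group was at the 96.0 percentile and that of the LTR at the 26.1 percentile. In control at 9 months the 2 rows spread alike, at 26.4% for the internal part and 32.5% for the LTR. No test of the difference in spread was made.

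The levels of the internal part and of the LTR were also set against each other within groups. Over the 7 PS19 samples at 9 months Pearson's r of the log2 values was 0.46 and Spearman's rho 0.21, given without a p because these values chose the pair. Without the 2 samples whose LTR was farthest from the median, r was -0.74, so its sign rests on them. Over the 6 controls of 9 months, likewise without a p, r was 0.12 and rho -0.14, with r at 0.21 without the 2 farthest. The 6 samples of high repeat total at 4 months were the 1 set tested, with an r of 0.55 (two-sided exact permutation p = 0.311) and a rho of 0.49 (two-sided exact permutation p = 0.356). There r was 0.28 without the 2 farthest. Sets of 6 or 7 samples leave wide room for relations that were not detectable here.

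At 4 months neither row differed between genotypes beyond the spread of the samples. RLTR45-int was at 344, 433, 358, 217 and 167 in PS19 replicates 1 to 5, and at 340, 499, 421, 161 and 216 in control replicates 1 to 5. In both genotypes the first 3 replicates were high and the other 2 low, following the repeat totals, and the genotypes overlapped. The log2 difference was -0.07 (SE 0.40, 95% interval -0.89 to 0.74, limma adjusted p = 0.9997), and 3 of 5 PS19 samples lay above the control median. The share of tested rows that passed in this contrast was 0%, and 0 rows had an unadjusted p under 0.05 in limma, edgeR or DESeq2. These fits had no term for the high and low sets, so the spread between the sets entered their error. The count of 0 therefore does not show that the genotypes were alike.

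RLTR45 was at 392, 394, 516, 220 and 163 in PS19 replicates 1 to 5 at 4 months, and at 416, 591, 450, 204 and 222 in control. Its log2 difference was -0.16 (SE 0.37, 95% interval -0.91 to 0.59, limma adjusted p = 0.9997). With a term for the sets of high and low repeat total, the intervals narrowed to -0.61 to 0.47 for RLTR45-int (limma adjusted p = 0.995) and -0.59 to 0.27 for RLTR45 (limma adjusted p = 0.995). Within the sets, RLTR45-int differed by -0.14 in replicates 1 to 3 and 0.03 in replicates 4 and 5, and RLTR45 by -0.16 and -0.17. The sign of the RLTR45-int difference also turned under scaling within repeats, to 0.0074 by the trimmed mean of M-values (TMM) and 0.053 by the total. The PS19 difference at 9 months minus that at 4 months was 1.96 (SE 0.53) for RLTR45-int and 0.80 (SE 0.49) for RLTR45, given without a test because the 9-month values chose the pair.

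Both rows followed the repeat total at 4 months less steeply than most of the table. RLTR45-int averaged 399 ± 62.9 in the 6 samples of high total and 190.3 ± 30.2 in the 4 of low total (SD), and RLTR45 460 ± 79.2 and 202 ± 27.2. On the log2 scale the sets differed by 1.06 for RLTR45-int and 1.17 for RLTR45, against a median of 1.93 over the 920 rows, which put them at the 12.3 and 15.5 percentile. The sets were defined from the repeat totals, so these are descriptions.

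The ratio of the internal part to the LTR within a sample is free of the size factor, and its median was highest in PS19 at 9 months. At 4 months the ratio stayed near 1 in all 10 samples, from 0.69 to 1.10 with a mean of 0.90 ± 0.12 (SD, n = 10), while RLTR45-int itself ran from 161 to 499. In control at 9 months it ran from 0.73 to 1.98 with a median of 0.94. In PS19 at 9 months it ran from 1.38 to 5.08 with a median of 2.18. Each of these 7 samples lay above every 4-month sample of either genotype. Against controls of the same age there was overlap: control replicate 4, at 1.98, lay above PS19 replicates 2 and 7, at 1.38 and 1.67, while the other 5 controls did not exceed 1.10. In that control the internal part was the highest of its group, at 95.8, and the LTR the lowest, at 48.4. PS19 replicates 6 and 7, whose sample numbers adjoined those of the controls, had ratios of 2.03 and 1.67, on either side of that control.

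As log2 ratios, the group means were -0.20 ± 0.13 in control and -0.11 ± 0.26 in PS19 at 4 months (SD, n = 5 each). Their difference of 0.09 (SE 0.13, 95% interval -0.21 to 0.39) did not exceed the spread (two-sided exact permutation test, p = 0.524, where 0.00794 is the smallest possible). Leaving out 1 sample gave 0.027 without PS19 replicate 2 to 0.19 without PS19 replicate 3, where the exact permutation p was 0.0794. At 9 months the means were 0.03 ± 0.50 in control (SD, n = 6) and 1.28 ± 0.64 in PS19 (SD, n = 7), a difference of 1.25 (SE 0.32), or 2.37-fold. Between ages the log2 ratio differed by 1.39 (SE 0.31) in PS19. In control it differed by 0.24 (SE 0.23), which fell to 0.050 without control replicate 4 of 9 months. Everything with 9-month values of the internal part is again a description.

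**Figure D2:**
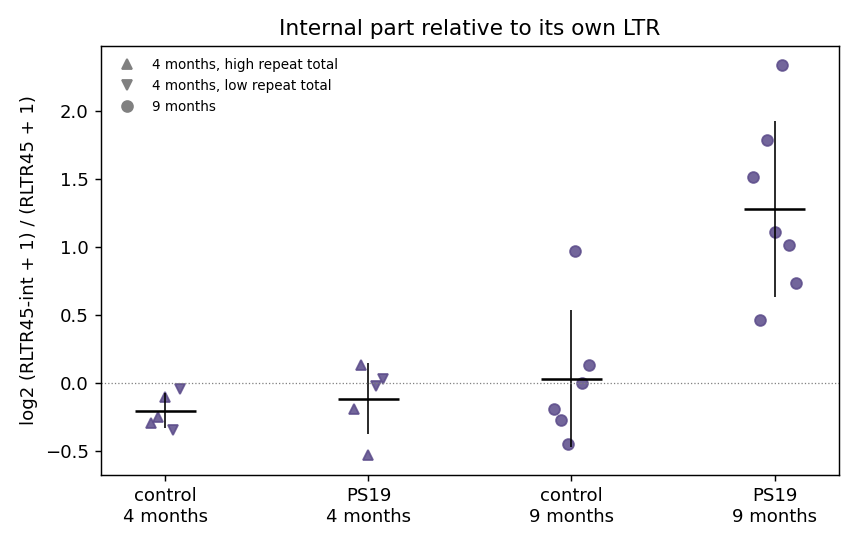
Log2 ratio of RLTR45-int to RLTR45 in every sample of the 4 groups, with the mean and 1 SD; the dotted line marks equal values. All 10 samples of 4 months and 5 of 6 controls of 9 months lie between -0.53 and 0.14, while PS19 at 9 months spans 0.47 to 2.33. The remaining control, replicate 4 at 0.97, lies above PS19 replicates 2 and 7 of 9 months, at 0.47 and 0.73.

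Other retroviruses of the table give a scale for this ratio. There were 46 internal parts tested together with an LTR row of the same name, the RLTR45 pair included. In the other 45 the log2 ratio of internal part to LTR differed between PS19 and control at 9 months by a median of 0.17, from -0.58 to 1.13, and 31 of them had the higher ratio in PS19. The RLTR45 pair, at 1.25, was highest, a rank that the choice of its internal part for the 9-month difference favours. Next came MLT1C-int at 1.13, which had 0 to 6.83 normalized reads in the 9-month samples, and MTE2a-int at 0.92, both internal parts of MaLR elements, an old non-ERVK group of LTR elements. In 4.35% of the 46 pairs, MTE2a-int and MTC-int, the ratios of the genotypes did not overlap at 9 months, and the RLTR45 pair was not among these. Of the 7 other ERVK pairs, RLTR18-int had the largest difference at 0.63 and RLTR19-int the lowest at -0.36. The median log2 difference at 9 months was 0.37 for the 45 internal parts and 0.18 for their LTRs. At 4 months the ratio of the other pairs differed by a median of 0.04, from -0.40 to 1.06, and that of RLTR45 by 0.09.

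**Figure D3:**
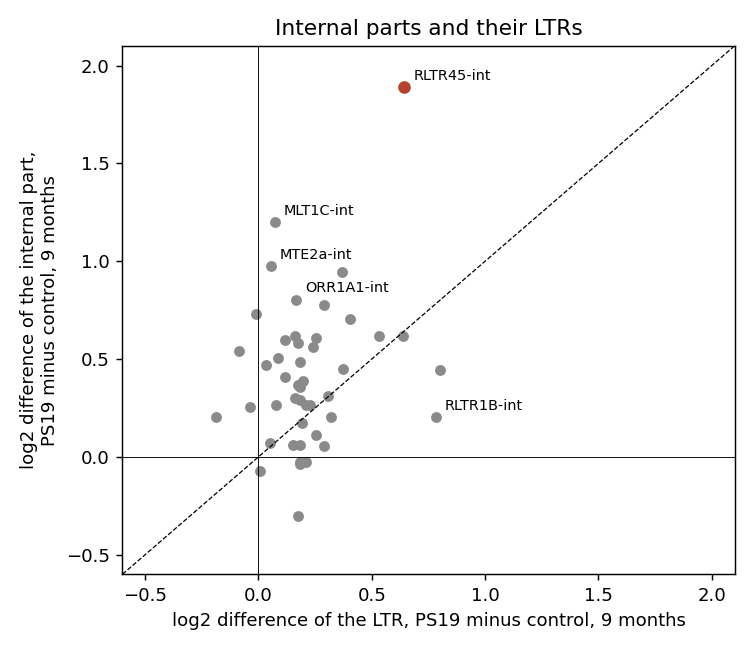
Log2 difference between PS19 and control at 9 months of 46 internal parts (vertical) against that of their own LTRs (horizontal); the dashed line marks equal differences. RLTR45-int, in red, lies at 1.89 with its LTR at 0.64, above the dashed line as 31 of the 45 other pairs do.

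The other ERVK internal parts differed less than RLTR45-int at 9 months, a rank that the choice of RLTR45-int for this difference favours. Most of them differed upward, as most rows of the table did. Of 44 in the table besides RLTR45-int, 41 had a mean of at least 10 and were tested. In the fit of all samples 0.109% of the 920 rows passed, and 0 of these 41 did. RLTR45-int is counted among the 920, so that share is not a background free of it. The log2 differences of the 41 had a median of 0.39, from -0.07 to 1.15, and 35 were positive. Over all 920 rows the median was 0.19 and 690 were positive. Under TMM scaling the median was 0.21 against 0.01 for all rows, and 1, RMER3D-int, passed, where 1.85% of all rows did. In the fit of the 9-month samples alone, where 3.04% of rows were called higher, 3 of the 41 were: IAPEz-int, an internal part of IAP elements, RLTR19-int and RMER3D-int. These were named because the count was small. The other internal parts with IAP in their name did not pass in that fit, at log2 differences from 0.09 for IAPEy-int to 0.89 for IAPEY3-int.

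IAPEz-int averaged 19694 ± 4809 for PS19 (SD, n = 7) against 12276 ± 2296 for control (SD, n = 6). Its log2 difference was 0.66 (limma adjusted p = 0.0144 with the 9-month samples alone). RLTR19-int was at 621 ± 73.1 against 456 ± 43.7, a log2 difference of 0.44 (limma adjusted p = 0.0221). RMER3D-int was at 72.4 ± 20.9 against 37.2 ± 10.3, a log2 difference of 0.93 (limma adjusted p = 0.0287). The groups overlapped in all 3 of these, RLTR19-int only in part, with a lowest PS19 value of 508 and a highest control value of 516.

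RNERVK23-int, named after its values were seen, as the next highest ERVK internal part, had a log2 difference of 1.15 on far fewer reads, at 19.5 ± 5.01 in PS19 and 9.75 ± 6.29 in control. RLTR44-int, MMERVK10C-int, RLTR10-int, and the ETn parts MMETn-int and ETnERV-int did not pass in any of these fits. Their log2 differences at 9 months were 0.16, 0.45, 0.20, 0.64 and 0.23. At 4 months the 41 had a median of 0.04, from -0.97 to 0.50, and 0 passed, as for the table as a whole.

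**Figure D4:**
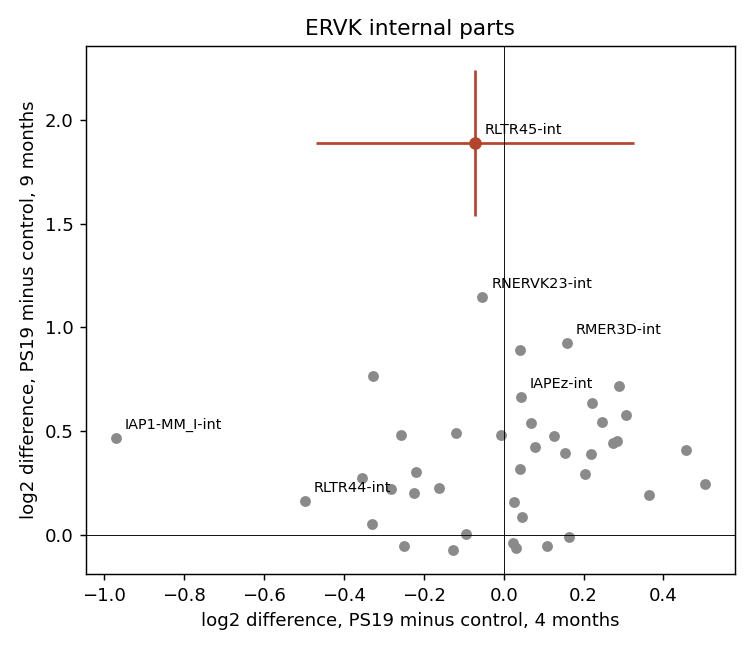
Log2 difference between PS19 and control of 42 ERVK internal parts at 9 months (vertical) and at 4 months (horizontal), with SE bars for RLTR45-int in red. RLTR45-int, which was chosen for its 9-month difference, lies at 1.89 and -0.07, and the next highest at 9 months, RNERVK23-int, at 1.15.

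Between ages the level of RLTR45 fell in both genotypes on the deposited scale, where most rows were lower at 9 months. The LTR was 5.79-fold higher at 4 than at 9 months in control, a log2 difference of -2.45 at 9 against 4 months (SE 0.35, limma adjusted p = 1.51e-06). In PS19 it was 3.39-fold higher at 4 months, a log2 difference of -1.65 (SE 0.34, limma adjusted p = 0.000118). All 5 samples of 4 months lay above all samples of 9 months in each genotype. The pair was chosen through RLTR45-int in these same 9-month samples. The limma p-values of the LTR between ages are therefore not free of that choice. The background is large: 79.3% of rows passed as lower in control and 77% in PS19, with median log2 differences of -2.14 and -1.83. In 48.4% of rows in control and 43.3% in PS19, every 9-month sample lay below every 4-month sample. With a term for the 4-month sets the LTR passed as lower in both, at -1.74 in control (limma adjusted p = 1.23e-07) and -0.94 in PS19 (limma adjusted p = 0.000808), as 62.2% and 53.5% of rows did. Scaled by TMM within repeats, the LTR was 0.48 lower on the log2 scale in control (limma adjusted p = 0.0203), and in PS19 the sign turned, at 0.076 (limma adjusted p = 0.707). If libraries of the ages were made or counted differently, that and age cannot be told apart.

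On the deposited scale, though not with TMM scaling, RLTR45-int differed between ages by more in control than in PS19, with no test of either difference or of the contrast between them. In control the 5 samples of 4 months, 161 to 499, all lay above the 6 of 9 months, 52.2 to 95.8, and the log2 difference was -2.21 (SE 0.38), close to the median of the table, and -0.24 (SE 0.27) with TMM scaling. In PS19 the mean was also lower at 9 months, 268 against 304, and the 167 to 433 of 4 months overlapped the 123 to 517 of 9 months. The log2 difference there was -0.25 (SE 0.37), at the 85.5 percentile of all rows, with 0.39 under a term for the 4-month sets and 1.47 with TMM scaling. Of the other 41 ERVK internal parts, 37 passed as lower in control, where 79.3% of all rows did, and 34 in PS19, where 77% did. As higher, 0 passed in control and 1 in PS19, where 6.09% of all rows did in each genotype. The 1 was RNERVK23-int, at a log2 difference of 1.11 (limma adjusted p = 0.0451). Under TMM scaling 15 were lower and 10 higher in control, where 33.8% and 31.2% of all rows were. In PS19 14 were lower and 8 higher, against 31% of all rows in each direction.

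As a share of the repeat reads, which puts every sample on the same repeat total, RLTR45-int of PS19 at 9 months was the high group. It made up 601 ± 320.1 per 1000000 repeat reads there (SD, n = 7), from 298 to 1228. In control at 9 months it made up 164 ± 43.0 (SD, n = 6), from 129 to 244. At 4 months the share was 267 ± 61.6 for PS19 and 257 ± 63.0 for control (SD, n = 5 each). These means mix the 2 sets, whose order is reversed on this scale. The share was 222 ± 30.5 in the set of high total (SD, n = 6) and 321 ± 32.7 in that of low total (SD, n = 4). PS19 samples of low total averaged 317 (n = 2). In PS19, 5 of 7 samples of 9 months lay above all 5 of 4 months. Thus the direction of the age difference in PS19 depends on the scale, with a mean 2.26-fold higher at 9 months as a share of repeat reads and 1.13-fold higher at 4 months in normalized reads. In control the internal part was lower at 9 months on both scales, without a term for the 4-month sets by about as much as the median row. Its log2 difference was -2.21 against a median of -2.14 in normalized reads. Scaled to the repeat total, it was -0.65 against a median of -0.60.

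The LTR took 222 ± 25.1 for PS19 and 159 ± 39.2 for control per 1000000 repeat reads at 9 months. At 4 months it took 284 ± 36.9 for PS19 and 296 ± 73.5 for control, and by set 254 ± 14.6 with high total and 344 ± 49.0 with low total. As a share, 3 of 7 PS19 samples of 9 months lay above every control of that age, the highest control being replicate 3 at 229.

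**Figure D5:**
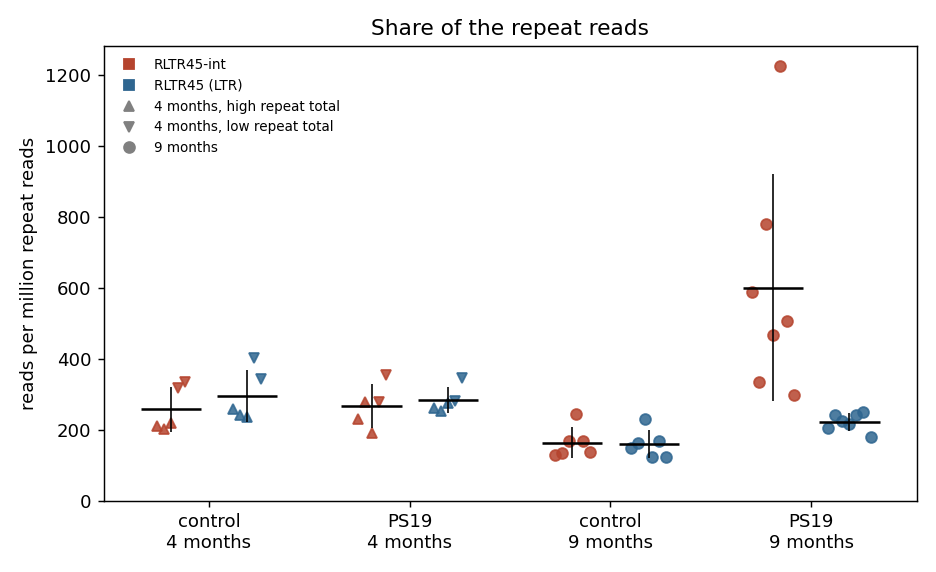
Reads of RLTR45-int (red) and RLTR45 (blue) per 1000000 repeat reads in every sample, with the mean and 1 SD. RLTR45-int of PS19 at 9 months lies between 298 and 1228, above all controls of that age, which reach 244.

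The rows that varied most like each member were ranked by Pearson's correlation of log2 values, among 647 others with a mean of at least 50. Over the 13 samples of 9 months RLTR19-int (0.90), the DNA transposon MER3 (0.87), the MaLR internal part ORR1A1-int (0.87) and the ERVL element RLTR28 (0.86) were nearest to RLTR45-int. The LTR of its own name ranked at place 29, with 0.73. Nearest to RLTR45 were RLTR30D2_MM (0.92), MamTip2 (0.90), L4_B_Mam (0.88) and RMER3D-int (0.87), an ERV1 element, a DNA transposon, a LINE and an ERVK internal part, and RLTR45-int came at place 100. These samples share the genotype difference and the general shift of the table, so the values are descriptions with no p.

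Over all 23 samples, with the median of each sample subtracted, ORR1A1-int (0.66), RLTR21 (0.61), Charlie5 (0.61) and RLTR9C (0.56) were nearest to RLTR45-int. Its own LTR was at 0.35, at place 31. Nearest to RLTR45 were ERVB4_1-I_MM-int (0.89), RLTR40 (0.88), MMERGLN-int (0.87) and RLTR30D2_MM (0.87), and RLTR45-int came at place 355. The nearest row thus stood at 0.89 for the LTR and at 0.66 for the internal part. ORR1A1-int, the row that both rankings gave for RLTR45-int, was at 374 ± 51.9 in PS19 and 215 ± 41.1 in control at 9 months, and at 525.9 ± 228 and 624 ± 332 at 4 months.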

How the data were processed

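RNA of 23 spinal cord samples was sequenced after poly(A) selection. The authors deposited a signal for each repeat subfamily, its reads over the size factor of the sample. Trimmomatic, STAR, DESeq2 and the build mm10 are named in the submitters' processing notes, without versions. How reads were assigned to repeats, with which annotation, and what became of reads that match many copies is not given in the sources used here. Each column held whole multiples of the value of 1 read (within 0.001 of a read), which gave the reads behind each value. All 23 columns matched a sample title, and replicates were numbered in accession order.

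Rows with a mean of at least 10 (920 of 1135) were tested on log2(value + 1) with limma 3.58.1 in R 4.3.3 (variance trend, a mean per group, all 23 samples) and Benjamini-Hochberg adjustment over all rows, at a threshold of 0.05. Folds on this scale understate changes of low rows. Ratios were compared with an exact permutation test in scipy 1.17.1. The members, lists and tests were chosen with earlier results of these data known. Tests of RLTR45-int and of the ratio between ages had been listed, and were dropped because 9-month values of RLTR45-int chose the pair. Those of RLTR45 between ages were kept, though they use the same 9-month samples. Named rows were the members, 6 ERVK internal parts, and the 4 rows most like each member by each of 2 rankings. Alternatives were the samples of an age alone, a term for the 4-month sets or either set alone, pseudocounts of 0.5 and 5, no filter or one at 50, TMM and total scaling, edgeR 4.0.16 and DESeq2 1.42.0 on recovered reads, and leaving out each sample. The use of PS19 replicates 6 and 7 alone was added after the data were seen. The limma fit was tested on simulated reads.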

Additional observations from a re-analysis of the deposited data

Results flagged for a closer look

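RLTR45 stood at 106 normalized reads in control replicate 3 at 9 months, far from the other 5 controls at 48.4 to 64.2. It was the 1 such sample in 12 groups of values examined, and chance gives about 1 in 20.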

How the results depend on the processing

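Of 320 recomputed values of 14 results, 303 kept their direction and their side of the threshold, or moved by less than 1 SD between samples. At 4 months, the RLTR45-int difference changed sign to 0.031 in the low set alone, 0.0074 with TMM and 0.053 with total scaling, and leaving out 1 sample gave -0.30 to 0.12 for RLTR45-int and -0.35 to 0.069 for RLTR45, none of which passed. The sign turned without PS19 replicate 4 or 5 or control replicate 2 or 3 for RLTR45-int, and without PS19 replicate 5 or control replicate 2 for RLTR45. For RLTR45-int at 9 against 4 months in control, -2.21 became -1.57 with the set term, -1.52 with the low set, -0.24 with TMM and -0.65 with total scaling. In PS19, -0.25 became 0.39 with the set term, 0.34 with the low set, 1.47 with TMM and 1.05 with total scaling, and -0.64 with the high set. For RLTR45 in PS19, -1.65 became 0.076 with TMM and -0.35 with total scaling (limma adjusted p = 0.0562). The cause of these shifts was not tested. Leaving out 1 sample gave 1.71 to 2.05 for RLTR45-int and 1.07 to 1.43 for the log2 ratio at 9 months. It gave 0.027 to 0.19 for the log2 ratio at 4 months, 0.050 to 0.33 for its age difference in control and 1.22 to 1.53 in PS19, and -0.44 to -0.091 for RLTR45-int between ages in PS19. No paired analysis was possible because the labels do not pair the samples. Controls at 9 months had 49 to 101 reads per row and sample, a counting error of 12.7% for RLTR45-int and 12.8% for RLTR45.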
